A study of Mus musculus with 22 samples.

Results

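DNA replication in the developing mouse brain was followed through 10 genes: Mcm2, Mcm3, Mcm4, Mcm5, Mcm6, Mcm7, Cdc6, Pcna, Rrm2 and Tyms. They were chosen by name, as every probe whose gene name in the array files, or an older synonym of it, is 1 of the 10, which gave 14 probes of 41174 on the array and 10 of its 19953 gene symbols. All 10 genes passed the filter on dim probes at both ages, so none is missing from any comparison. Mcm3 and Cdc6 had 2 probes each and Tyms had 3. A gene is given by its brightest probe unless another is named.

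The products of these genes act together in S phase, when a cell copies its DNA. The Mcm2 to Mcm7 proteins form the ring-shaped helicase that opens the double helix, Cdc6 helps to load that ring on replication origins before S phase begins, Pcna is the sliding clamp that holds DNA polymerases on the template, and Rrm2 and Tyms make deoxynucleotides. In the embryonic brain the dividing cells are mostly progenitors near the ventricles, and neurons leave the cell cycle for good when they are born.

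The animals were mice of embryonic day 15 (E15) and postnatal day 1 (P1). At each age the brains of animals labelled knockout for Agtr2, the gene of the angiotensin II type 2 receptor, were compared with those of control animals. The labels give no strain, sex, allele or method of inactivation, and no agent was named for any group. RNA of 1 animal labelled knockout and 1 control was hybridized together, in Cy3 and Cy5, on each of 22 arrays. The E15 set held 14 arrays, with 8 brains carrying the knockout label and 6 control brains, so some controls served more than 1 of the 8 pairs. Knockout 1 was set against controls 6 and 1 and knockout 2 against controls 2 and 3, 1 array each, so the ratios of pairs 1 and 2 average over 2 controls. The P1 set held 8 arrays, with 4 brains of each label. Agtr2 RNA did not check the labels, with a log2 knockout over control of -0.39 (standard error, SE, 0.31, n = 8, adjusted p = 0.808) at E15 and 0.11 (SE 0.08, n = 4, adjusted p = 0.72) at P1. E15 pairs 3 and 4 had 1 array each, and the mean dye effect of the other pairs was subtracted from their values. From 74.9% to 89.3% of spots stood well above background on the E15 arrays and from 71.3% to 89.5% on those of P1. Spots marked as outliers, which were set missing, numbered 52 to 381 on an E15 array and 287 to 3343 on a P1 array. Each probe of the 10 genes had 1 spot on an array, none was saturated, and all the brightest probes except that of Cdc6 were well above background in both channels of every array. Levels below are log2 of normalized intensity, which can be compared between animals for a probe but not between probes.

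RefSeq promoter windows of assembly GRCm38.p6 were given for 9 of the 10 genes, all except Mcm4, with Mcm7 holding a pair of alternative windows. The 250 bases before the start were searched on both strands for the letters known to bind E2F, the transcription factor family that switches on genes of S phase (TTTCCCGC, TTTCGCGC, TTTGCCGC and TTTGGCGC), and for CCAAT. An E2F-like octamer was present in 4 of the 10 windows (40.0%), those of Mcm5, Mcm6, Mcm7 and Cdc6, in 16.4% of the 73 windows of other replication genes, and in 1.86% of all 32851 windows. CCAAT was present in 8 of the 10 windows (80.0%), all but those of Tyms and Cdc6, in 47.9% of the windows of other replication genes, and in 33.8% of all windows. The 4 windows with an octamer are shown, with that of Mcm2 as a gene with a large change and no octamer, read 5′ to 3′ along the gene, with octamers and CCAAT, on either strand, in capitals:

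Mcm5, chr8:75109259-75109508, plus strand: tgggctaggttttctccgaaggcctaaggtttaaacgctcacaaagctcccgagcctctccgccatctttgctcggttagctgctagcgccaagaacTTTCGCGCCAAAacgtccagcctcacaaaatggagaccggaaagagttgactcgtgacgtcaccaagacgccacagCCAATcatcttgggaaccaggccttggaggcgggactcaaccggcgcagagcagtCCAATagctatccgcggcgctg
Mcm6, chr1:128359706-128359955, minus strand: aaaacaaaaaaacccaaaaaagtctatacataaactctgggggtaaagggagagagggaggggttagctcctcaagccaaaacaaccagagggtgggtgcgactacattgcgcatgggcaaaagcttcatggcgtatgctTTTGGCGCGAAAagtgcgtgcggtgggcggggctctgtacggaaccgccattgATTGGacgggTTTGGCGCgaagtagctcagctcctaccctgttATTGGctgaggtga
Mcm7, chr5:138171884-138172133, minus strand: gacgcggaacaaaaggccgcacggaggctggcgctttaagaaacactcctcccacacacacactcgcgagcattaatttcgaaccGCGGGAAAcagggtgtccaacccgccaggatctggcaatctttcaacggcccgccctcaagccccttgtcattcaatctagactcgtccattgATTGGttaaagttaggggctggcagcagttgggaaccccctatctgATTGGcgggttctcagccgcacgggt
Cdc6, chr11:98907901-98908150, plus strand: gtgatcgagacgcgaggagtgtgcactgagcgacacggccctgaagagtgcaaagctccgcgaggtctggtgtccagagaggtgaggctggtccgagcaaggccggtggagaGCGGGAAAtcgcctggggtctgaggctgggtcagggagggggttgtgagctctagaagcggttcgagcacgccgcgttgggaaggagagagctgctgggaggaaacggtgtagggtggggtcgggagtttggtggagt
Mcm2, chr6:88898781-88899030, minus strand: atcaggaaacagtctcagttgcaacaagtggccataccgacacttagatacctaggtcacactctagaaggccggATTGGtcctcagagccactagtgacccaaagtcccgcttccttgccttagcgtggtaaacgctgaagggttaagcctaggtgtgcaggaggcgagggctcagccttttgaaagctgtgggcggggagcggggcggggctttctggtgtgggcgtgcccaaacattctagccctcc

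In the Mcm5 and Mcm6 windows octamers on opposite strands overlap each other, so the runs of capitals there are longer than 8 letters. These matches describe letters only, and the arrays carried no measurement of factor binding.

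Between E15 and P1 the RNA of these genes fell in the control brains. Of the 10 genes, 9 were lower at P1 with an adjusted p under 0.05 (limma, Benjamini-Hochberg over 25496 features), none was higher, and the median change was -1.01 on the log2 scale. Over all features 37.1% were called, 22.2% lower and 14.8% higher, and the median change was -0.08. For the same 9 genes no P1 control reached the level of any E15 control, which held for 16.8% of all features. Pcna was the exception. In whole tissue, fewer dividing cells and less RNA per cell cannot be told apart. E15 and P1 also differed in scan day (3 days and 1 other day) and in the version of the scanner software (8.1.1.1 and 8.5.1.1), which cannot be told apart from age.

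**Figure D1:**
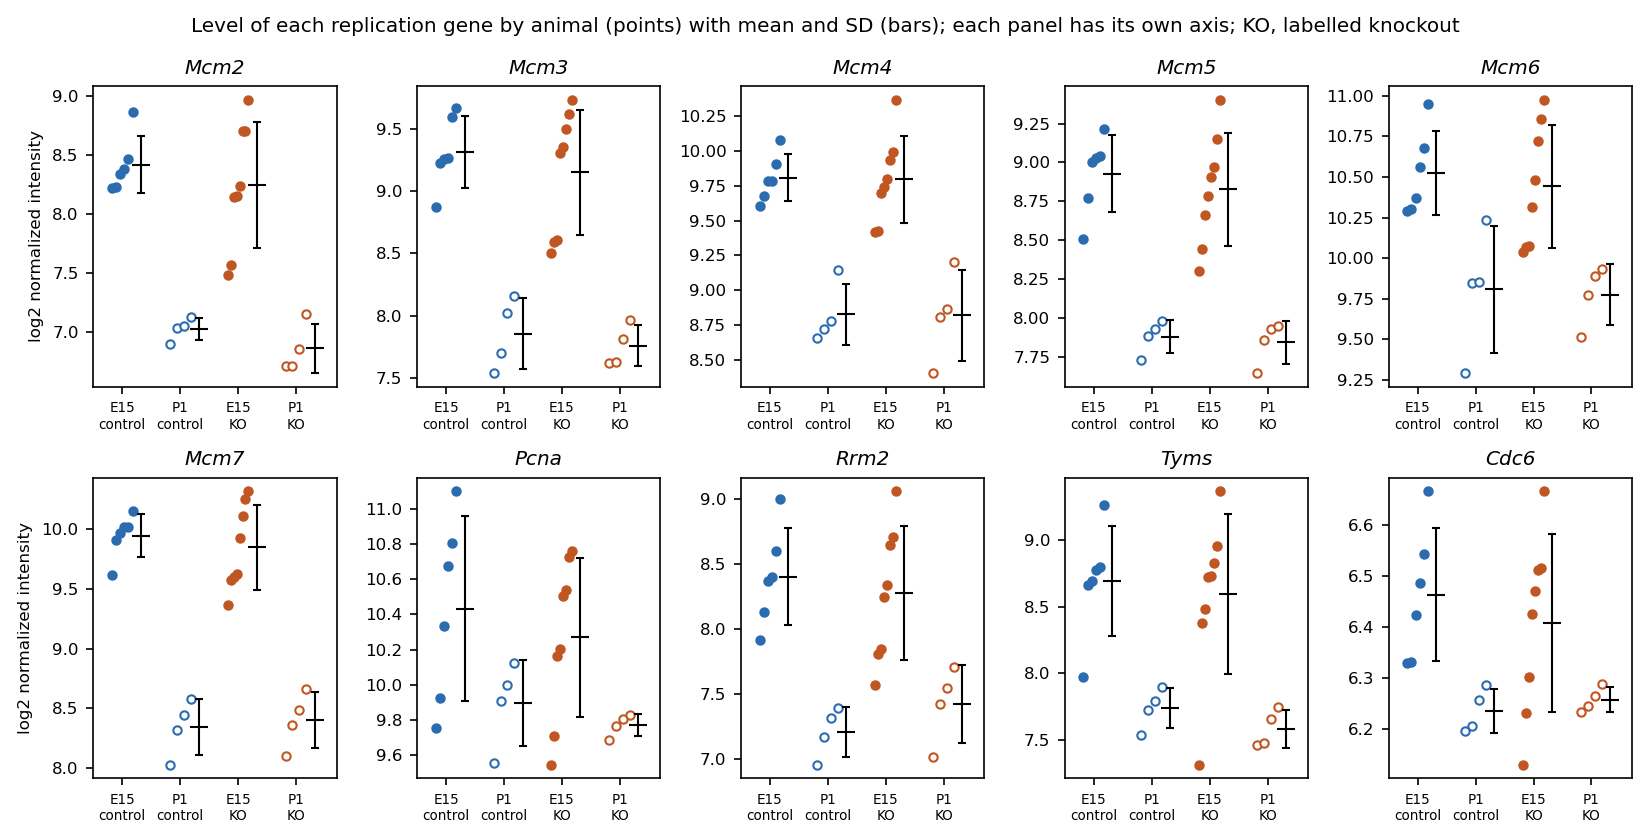
Level of each gene in every animal, as log2 normalized intensity on an axis of its own per gene. Filled points are E15 and open points P1, blue is control and orange is labelled knockout (KO), and bars give the mean and SD. In controls the P1 points lie below all E15 points for every gene but Pcna, as they do for 16.8% of all features.

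Mcm7 had the largest change of the helicase subunits here, although Mcm2 was larger with the scanner's processed signals (-1.91 against -1.8) and Mcm3 without P1 control 3. Its level in the 6 E15 controls (probe A_51_P165704) ran from 9.62 to 10.15 with a median of 9.99. In the 4 P1 controls it was 8.32, 8.58, 8.03 and 8.45. The E15 range is narrow and lies far above the P1 range. The change was -1.60 (SE 0.12, 95% confidence interval -1.87 to -1.33, adjusted p = 6.3e-06), a 3.03-fold lower intensity at P1.

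Mcm3 and Mcm2 followed. Mcm3 (probe A_51_P324934) ran from 8.87 to 9.67 in E15 controls, median 9.26, and was 7.70, 7.54, 8.16 and 8.03 in P1 controls. Its change of -1.45 (SE 0.17, adjusted p = 0.000111) was 2.74-fold, while its dimmer probe, A_52_P364776, gave -0.53, so the size of the Mcm3 change depends on the probe. Mcm2 (probe A_51_P158210) ran from 8.22 to 8.87 in E15 controls, median 8.36, and was 7.05, 6.90, 7.04 and 7.13 in P1 controls. The P1 values of Mcm2 lie close together, and the highest E15 value, of control 3, stands apart from the other E15 controls. The Mcm2 change was -1.39 (SE 0.12, adjusted p = 1.64e-05), or 2.61-fold. Its size depends on the background correction, at -1.91 with the scanner's processed signals and -1.75 with a smaller offset.

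Mcm5 and Mcm4 came next in size. Mcm5 (probe A_51_P190111) ran from 8.51 to 9.21 in E15 controls, median 9.02, and was 7.98, 7.93, 7.88 and 7.73 in P1 controls, a change of -1.05 (SE 0.13, adjusted p = 0.000143). Mcm4 (probe A_51_P356762) ran from 9.61 to 10.08, median 9.79, against 8.72, 8.78, 9.15 and 8.66, a change of -0.98 (SE 0.12, adjusted p = 0.000133). Neither gene had any overlap between the ages.

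Mcm6 had the smallest change of the ring. Its level (probe A_51_P360492) ran from 10.29 to 10.95 in E15 controls, median 10.47, and was 9.85, 9.29, 10.24 and 9.85 in P1 controls. The highest P1 animal, control 3, lay just under the lowest E15 animal. The change was -0.72 (SE 0.18, 95% confidence interval -1.12 to -0.32, adjusted p = 0.0106), or 1.64-fold, and -1.14 when channels were only scaled to a common median. Subunits of 1 ring thus gave changes from -1.60 to -0.72, and these differences between genes were not tested, since each rests on a probe of its own.

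Cdc6, the loader, had a dim signal and a small change. Its brighter probe, A_52_P371108, was well above background in the control channel of 13 of 14 E15 arrays and 7 of 8 P1 arrays. Its level ran from 6.33 to 6.67 in E15 controls, median 6.46, and was 6.21, 6.29, 6.20 and 6.26 in P1 controls. The groups do not overlap but nearly touch. The change was -0.23 (SE 0.08, adjusted p = 0.0377), or 1.17-fold, and the other probe gave -0.30. The call was lost when any of 8 of the 10 animals was left out (change -0.25 to -0.19 over all 10), when channels were only scaled to a common median (adjusted p = 0.0791), and in no other alternative that tested it. Its size depends on the background correction, at -0.68 with the scanner's processed signals and -0.43 with a smaller offset.

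Pcna, the clamp, was the gene whose fall did not pass. Its level (probe A_51_P396351) ran from 9.75 to 11.10 in E15 controls, median 10.51, and was 10.12, 9.91, 10 and 9.56 in P1 controls. E15 controls 1 and 2, at 9.75 and 9.93, lie among the P1 values, and the other E15 controls lie above all of them. The change was -0.54 (SE 0.25, 95% confidence interval -1.09 to 0.02, adjusted p = 0.116). It was -0.85, still not past the threshold, when channels were only scaled to a common median. Without E15 control 1 it was -0.67 (adjusted p = 0.0331).

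Both genes of nucleotide supply fell. Rrm2, the regulated small subunit of ribonucleotide reductase (probe A_51_P110689), ran from 7.92 to 8.998 in E15 controls, median 8.38, and was 7.39, 6.95, 7.32 and 7.17 in P1 controls. Its change was -1.19 (SE 0.18, adjusted p = 0.000713), or 2.29-fold, and it reached -1.66 under the alternatives run. Tyms, thymidylate synthase (probe A_51_P398366), ran from 7.97 to 9.27 in E15 controls, median 8.73, and was 7.89, 7.53, 7.79 and 7.73 in P1 controls. The lowest E15 value of Tyms, of control 2, comes close to the highest P1 value, and for Rrm2 the gap is wider. The Tyms change was -0.96 (SE 0.20, adjusted p = 0.00366), or 1.94-fold. A second Tyms probe, A_52_P292651, gave -0.97, but the dimmest, A_51_P375761, gave 0.20, so the probes of Tyms disagree in direction. Averaged over its 3 probes the Tyms change was -0.57, still past the threshold.

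Markers of several cell types changed over the same interval. In controls 8 of 11 markers of postmitotic neurons and 5 of 7 of astrocytes were called higher at P1, and of 11 progenitor markers 3 were called higher and 4 lower. The progenitor markers called higher were Notch1 (1.63, with values in 3 P1 controls), Fabp7 (1.52) and Slc1a3 (1.19). Those called lower were Vim (-1.804), Nes, the intermediate filament nestin (-1.28), Prom1 (-0.47) and Hes1 (-0.26). Of the 11 progenitor markers 8 lay below 0 and 3 above, with a median change of -0.26. The summed signal of the progenitor markers was 14900 to 18400 in E15 controls and 15700 to 29400 in P1 controls. Such a sum weighs the brightest probes most, such as that of Fabp7 (mean level 12.47 at E15 and 13.99 at P1). It is therefore no measure of progenitor content. Markers of meninges and fibroblasts (4 of 8 called lower) and of skeletal muscle (1 of 8), which lie outside the brain proper, had summed signals of 2890 to 45300 and 1410 to 34200 in E15 controls and of 2060 to 2780 and 976 to 1400 in P1 controls. None of these markers was at background on all arrays. E15 controls 1 and 2 were highest for both lists. Without them, a choice made after seeing the data, all 10 genes were called lower, the median change was -1.09 and the Pcna change was -0.83 (adjusted p = 0.0045). The share of all features called without these controls is not given here. Erythroid markers were lower too (5 of 6, with a summed signal of 5120 to 14000 against 1740 to 3420). Of 10 forebrain markers 3 were called lower, and 8 lay below 0 and 2 above, with a median of -0.635. The forebrain summed signal was 1990 to 10000 in E15 controls and 1880 to 4500 in P1 controls. Emx2, a forebrain marker at 1.73, had a value in 1 P1 control. The part of the other marker changes in the result, forebrain included, was not tested.

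The animals labelled knockout gave the age difference in other individuals of the same arrays, although on the other channel of them. In these animals 8 of the 10 genes were called lower at P1, with a median of -0.98, where 28.4% of all features were called (15.5% lower) and the median feature changed by -0.07. Mcm7 changed by -1.44 (SE 0.18, adjusted p = 0.000111), from an E15 range of 9.37 to 10.32 to P1 values of 8.49, 8.66, 8.11 and 8.36. The smallest changes, of Pcna at -0.50 (SE 0.21, adjusted p = 0.0987) and Cdc6 at -0.15 (SE 0.09, adjusted p = 0.251), did not pass. Pcna did pass without E15 knockout 1 (-0.60, adjusted p = 0.0257) or 4 (-0.58, adjusted p = 0.0499). Cdc6 passed when averaged over its probes (-0.26, adjusted p = 0.0299), and with the scanner's processed signals it was at -0.57 without passing.

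The SD at E15 was larger among the animals labelled knockout than among controls for every gene but Pcna (for Mcm2, 0.53 against 0.24), a difference that was not tested. The share of all features with a larger SD in that group is not given here. The groups were also measured unequally, since knockouts 3 and 4 had 1 array each and every E15 control had more than 1. For the 6 Mcm genes every P1 value lay below every E15 value, as for 9.01% of all features, while Pcna, Rrm2, Tyms and Cdc6 overlapped. The Tyms level of E15 knockout 4 was 7.31, under all P1 animals of that label (7.75, 7.47, 7.46 and 7.66), while the other E15 animals of that label lay at 8.38 or above. For Rrm2 the lowest E15 value, 7.57 in knockout 1, lay within the P1 values of 7.55, 7.01, 7.71 and 7.42. The Rrm2 change was -0.86 (SE 0.26, adjusted p = 0.0254) and the Tyms change -1.02 (SE 0.28, adjusted p = 0.018). The count of 8 fell to 5 without P1 knockout 2, when Mcm6, Rrm2 and Tyms did not pass (adjusted p = 0.0685, 0.0893 and 0.0517). How many of all features were called without that animal is not given here. Mcm6 and Rrm2 also did not pass without P1 knockout 4 (adjusted p = 0.0512 and 0.0635), nor did Tyms without P1 knockout 3 (adjusted p = 0.0541). Whether the age change differed between the labels was tested as the difference of the knockout effect between the ages, given further on.

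**Figure D2:**
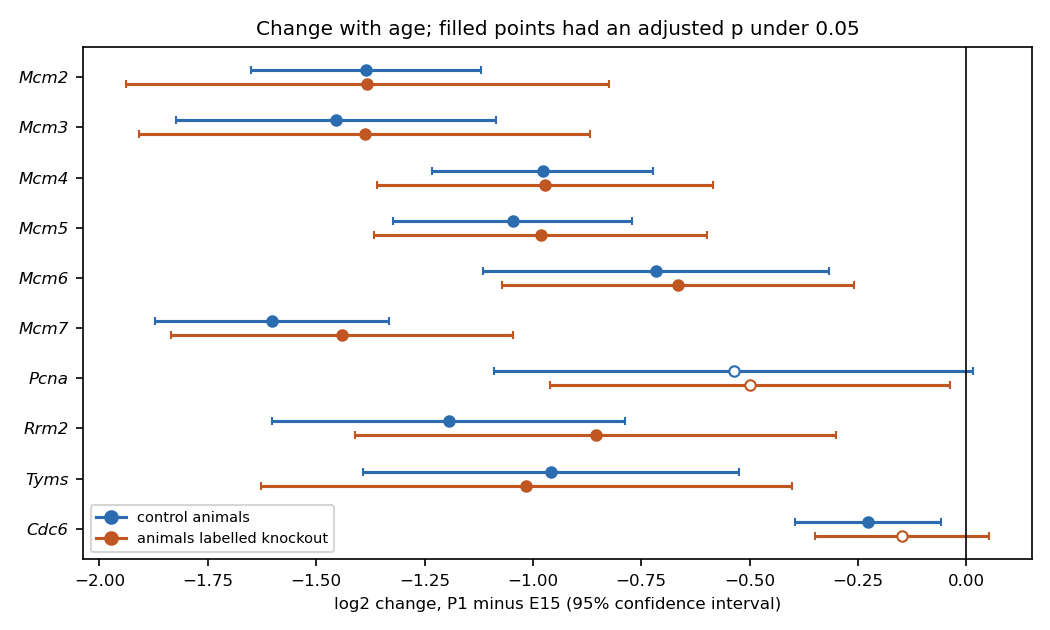
Change of each gene from E15 to P1 (log2, P1 minus E15) with its 95% confidence interval, in control animals (blue) and animals labelled knockout (orange). Filled points had an adjusted p under 0.05, and Pcna in both groups and Cdc6 in animals labelled knockout are open.

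The mean of the 10 genes set the ages apart in the controls. With each gene centred on its mean over the 10 controls, the mean of the 10 genes lay between 0.25 and 0.76 in the E15 controls, highest in control 3, and between -0.72 and -0.51 in the P1 controls. On the same scale the P1 animals labelled knockout lay between -0.74 and -0.55. The E15 animals labelled knockout reached from -0.16 (knockout 4) and -0.03 (knockout 6) to 0.68 (knockout 8). Mcm4 and Mcm5 lay nearest to this mean profile, with root mean square differences of 0.16 and 0.18, and Cdc6 lay farthest, at 0.40. Each of the 10 genes is itself part of the mean, and the difference is not scaled. It therefore grows as the age change of a gene departs from the mean change. Of 17356 other named genes, the 10 with the smallest root mean square difference from the mean profile over these 10 animals were Bub1 (0.09), Hbp1, Bub1b, Rhbdl3, Nup37, Smc4, Gnb1, Dtl, Phactr4 and Cbx2 (0.13). Their own changes ran from -1.08 (Gnb1) to -0.85 (Bub1b), and none of them is in the lists of other replication genes. Those lists are a choice, so a gene outside them can still act in replication.

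Other genes of the replication machinery were mostly lower at P1 too, with a smaller median. Of 71 such genes 41 were called lower and 2 higher in controls, with a median of -0.44. In animals labelled knockout 34 were called lower and 1 higher. Genes of origin recognition, licensing and firing had the smallest median, -0.29, with 11 of 26 called lower. The subunits of the origin recognition complex named first in that list, Orc1, Orc2 and Orc3, had changes of -0.19, -0.17 and -0.24, none of which passed (adjusted p = 0.0703, 0.335 and 0.208). The 2 genes called higher were in this list: Gins2, a subunit of the helicase's GINS partner, at 0.70 (SE 0.18, adjusted p = 0.0157) and Mcmbp, a protein that binds the Mcm ring, at 1.03 (SE 0.31, adjusted p = 0.0276). Both rest on 2 of the 4 P1 controls, since the scanner software marked the other spots as outliers. With those spots kept, the changes were 0.63 for Gins2 (adjusted p = 0.0102) and 1.197 for Mcmbp (adjusted p = 0.000441). The other 3 probes of Mcmbp gave -0.47 to 0.03. Some of the 71 genes gave a dim signal near that of Cdc6 (mean 6.46 in E15 controls), such as Orc1 (6.38), Pola2 (6.36) and Rrm2b (6.48). At such a signal the size of a change can depend on the background correction, as for Cdc6. The size of the Mcm2 change, at a brighter signal, depended on that correction as well. Differences in size between genes or lists were not tested.

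Polymerases and primase had 8 of 12 genes called lower, with a median of -0.48. Pola1, the catalytic subunit of polymerase alpha, fell by 0.80 on the log2 scale (adjusted p = 0.000358) and Pola2, its partner subunit, by 0.25 (adjusted p = 0.0403; its other probe gave -0.02), while Prim1, the primase, was at -0.37 (adjusted p = 0.171). The clamp loader, single-strand binding and lagging-strand genes had 11 of 15 called lower and a median of -0.60. Among the clamp loader subunits, which open the Pcna ring, Rfc1 was at -0.48 (adjusted p = 0.022), Rfc2 at 0.02 (adjusted p = 0.965) and Rfc3 at -0.44 (adjusted p = 0.0202).

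Nucleotide supply had 6 of 11 called lower and a median of -0.50. Rrm1, the large subunit that pairs with Rrm2, fell by 1.21 on the log2 scale (SE 0.13, adjusted p = 8.98e-05). Rrm2b, the small subunit used outside S phase, was at -0.02 (adjusted p = 0.883). Replication-coupled chromatin genes had 5 of 7 called lower and a median of -0.72. Of the histone chaperones, Chaf1a was at -0.17 (adjusted p = 0.389), Chaf1b at -0.87 (adjusted p = 0.0172) and Asf1b at -0.74 (adjusted p = 0.0012).

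**Figure D3:**
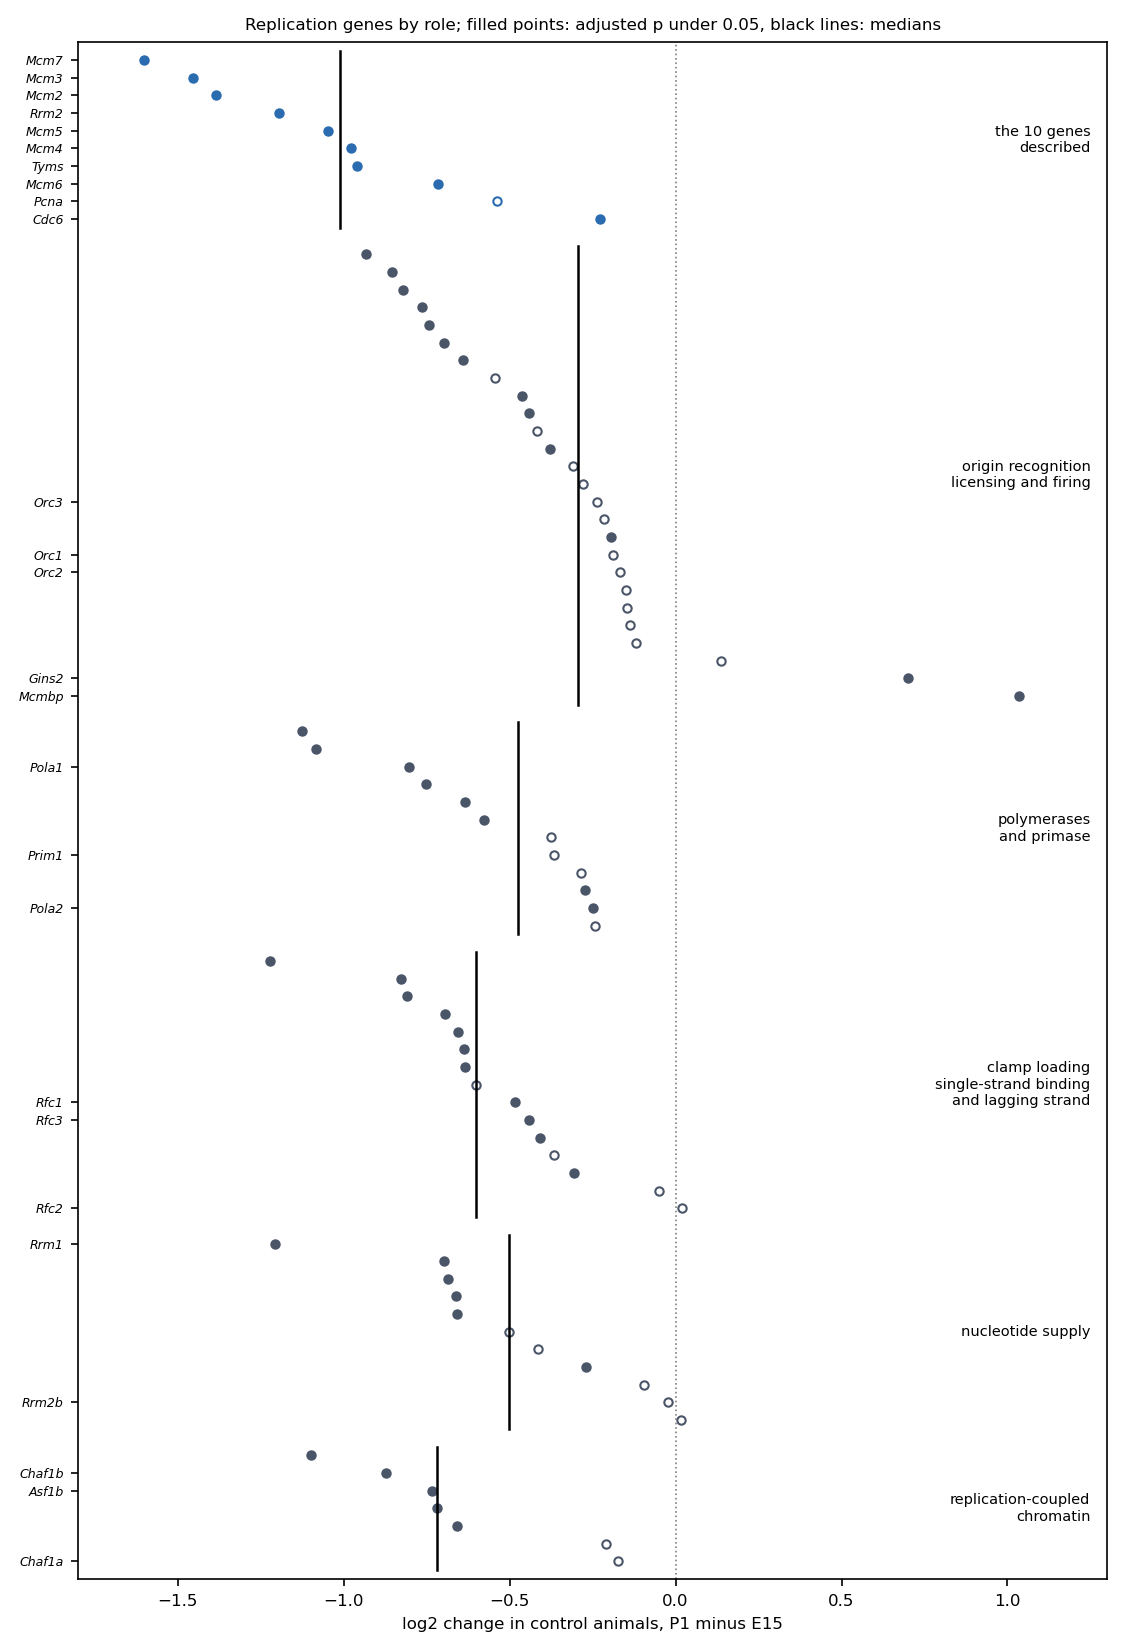
Change of each replication gene in control animals from E15 to P1 (log2), grouped by role, with the 10 genes described at the top. Genes named in the text are labelled. Filled points had an adjusted p under 0.05 and black lines are medians of each group, from -1.01 for the 10 genes to -0.29 for origin genes. Gins2 and Mcmbp are the only filled points right of 0.

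The second question of the design is whether the label knockout went with a difference at either age. At E15 none of the 10 genes was called, nor was any of the 24132 features tested (0%; 1545 had an unadjusted p under 0.05). All 10 genes lay below 0, from -0.19 (Mcm3) to -0.04 (Cdc6), although Mcm3, Mcm4, Mcm7 and Pcna lay above 0 when arrays were only centred on their median. The median was -0.10 and the adjusted p ran from 0.813 to 0.927. The median of all features was -0.01, and 53.6% of them lay below 0. The markers of meninges and fibroblasts lay below 0 as well, 8 of 8, with a median of -0.47, while 10 of 11 markers of postmitotic neurons lay above 0, with a median of 0.16. Of the 11 progenitor markers 6 lay above 0, with a median of 0.05. No marker of these lists was called, and their part in the result was not tested beyond the values given further on.

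The E15 pairs disagreed among themselves by more than these means. In pair 3, 9 of the 10 genes were higher in the animal labelled knockout, with a median of 0.45. In pairs 4 and 5, 9 of 10 were lower, with medians of -0.22 and -0.19, and in pair 6, 8 of 10 were lower, with a median of -0.44. The other pairs had medians from -0.11 to 0.05. Over all features, 11529 of 24075 lay above 0 in pair 3. In pairs 4, 5 and 6, 13052 of 24086, 10772 of 24127 and 11613 of 24112 features lay below 0. In pair 4 all 11 neuron markers were higher, with a median of 0.55. Of the 11 progenitor markers 7 were higher in that pair too, with a median of 0.47. Pairs 3 and 4, the highest and the lowest for Mcm3 and Tyms, are the ones with a single array.

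Among the helicase genes at E15, the Mcm2 ratio ran from -0.85 (pair 6) through a median of -0.09 to 0.58 (pair 3). Mcm3 ran from -1.02 (pair 4) through -0.10 to 0.45 (pair 3), and Mcm5 from -0.91 (pair 6) through -0.08 to 0.46 (pair 3). Pairs 4 and 6 carried the low ends and pair 3 the high end for these subunits. The means were -0.16 (SE 0.16, 95% confidence interval -0.52 to 0.19) for Mcm2, -0.19 (SE 0.16) for Mcm3 and -0.10 (SE 0.13) for Mcm5. Mcm7 was below 0 in 7 of 8 pairs, but 4 of those 7 lay between -0.06 and -0.01, and its mean was -0.10 (SE 0.14). Mcm4 and Mcm6 were split, 4 pairs above 0 and 4 below, with means of -0.06 (SE 0.09) and -0.10 (SE 0.10).

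Cdc6 at E15 ranged only from -0.19 to 0.04, and its mean was -0.04 (SE 0.04). Pcna ran from -0.57 (pair 8) through a median of -0.25 to 0.70 (pair 3), and Rrm2 from -0.50 (pair 1) through -0.19 to 0.55 (pair 3). Their means were -0.13 (SE 0.14) and -0.10 (SE 0.12). Tyms had the lowest value of any gene, -1.32 in pair 4, although 5 of its 8 pairs lay above 0 and its median was 0.03. Its mean was -0.09 (SE 0.18, 95% confidence interval -0.49 to 0.32), and 0.08 without pair 4.

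Contents of other tissue also differed between the partners of a pair. The median log2 knockout over control of the meninges and fibroblast markers ran from -2.74 (pair 4) to 3.29 (pair 8), and that of the muscle markers from -3.21 (pair 4) to 2.85 (pair 8). In pair 3 these medians were -1.85 and -0.70, and in pair 6 they were -0.94 and -0.71. Forebrain markers, of a brain region, differed between partners too. Their medians in pairs 1 to 8 were 0.58, 0.27, 0.67, 0.38, -0.02, -0.37, 0.03 and -1.75. The part of the forebrain markers in the result was not tested. Leaving out the 3 pairs that hold control 1 or knockout 8, the E15 animals with the highest summed signal of the meninges list, gave a median over the 10 genes of -0.04, and again no gene was called. This choice was made after seeing the data. The 4 pairs scanned on day 3 gave a median of -0.01 and the 4 scanned on days 1 and 2 gave -0.23.

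At P1 none of the 10 genes and none of the 24613 features was called (0%; 2308 had an unadjusted p under 0.05). Here 3 genes lay above 0 and 7 below, with a median of -0.03 and adjusted p of 0.481 to 0.997. The median of all features was 0.01, and 45% of them lay below 0. Mcm4, Mcm6 and Cdc6 changed sides when arrays were only centred on their median. Rrm2 was higher in the animal labelled knockout in 4 of 4 pairs, at 0.16, 0.06, 0.39 and 0.25. Its mean was 0.21 (SE 0.07, 95% confidence interval 0.05 to 0.38), with an unadjusted limma p of 0.0221 and an adjusted p of 0.481. Tyms was lower in 4 of 4, at -0.15, -0.06, -0.33 and -0.07, with a mean of -0.15 (SE 0.06, adjusted p = 0.537). The other Tyms probes gave -0.11 and 0.02. By their brightest probes the genes of nucleotide supply thus lay on opposite sides of 0, neither past the threshold. The share of all features with 4 of 4 pairs on the same side is not given here.

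Of the other genes at P1, Mcm2 was lower in 3 of 4 pairs, at -0.34, -0.04, -0.32 and 0.03, with a mean of -0.17 (SE 0.08, adjusted p = 0.581). Mcm4 was the most scattered, at 0.15, 0.03, -0.74 and 0.54, with a mean of -0.01 (SE 0.21). Its extremes came from pairs 3 and 4. Pair 3 had the lowest value for Mcm3, Mcm4, Mcm5, Mcm6 and Tyms and the highest for Rrm2 and Cdc6, and its median over the 10 genes was -0.32, against 0.03 to 0.05 in the other pairs. Mcm7 (0.06), Cdc6 (0.02), Mcm3 (-0.10), Mcm5 (-0.04), Mcm6 (-0.03) and Pcna (-0.13) had 95% confidence intervals that hold 0. Forebrain markers differed between partners at P1 as well, with pair medians of 0.84, -0.55, 0.80 and -0.30, and their part in these values was not tested.

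**Figure D4:**
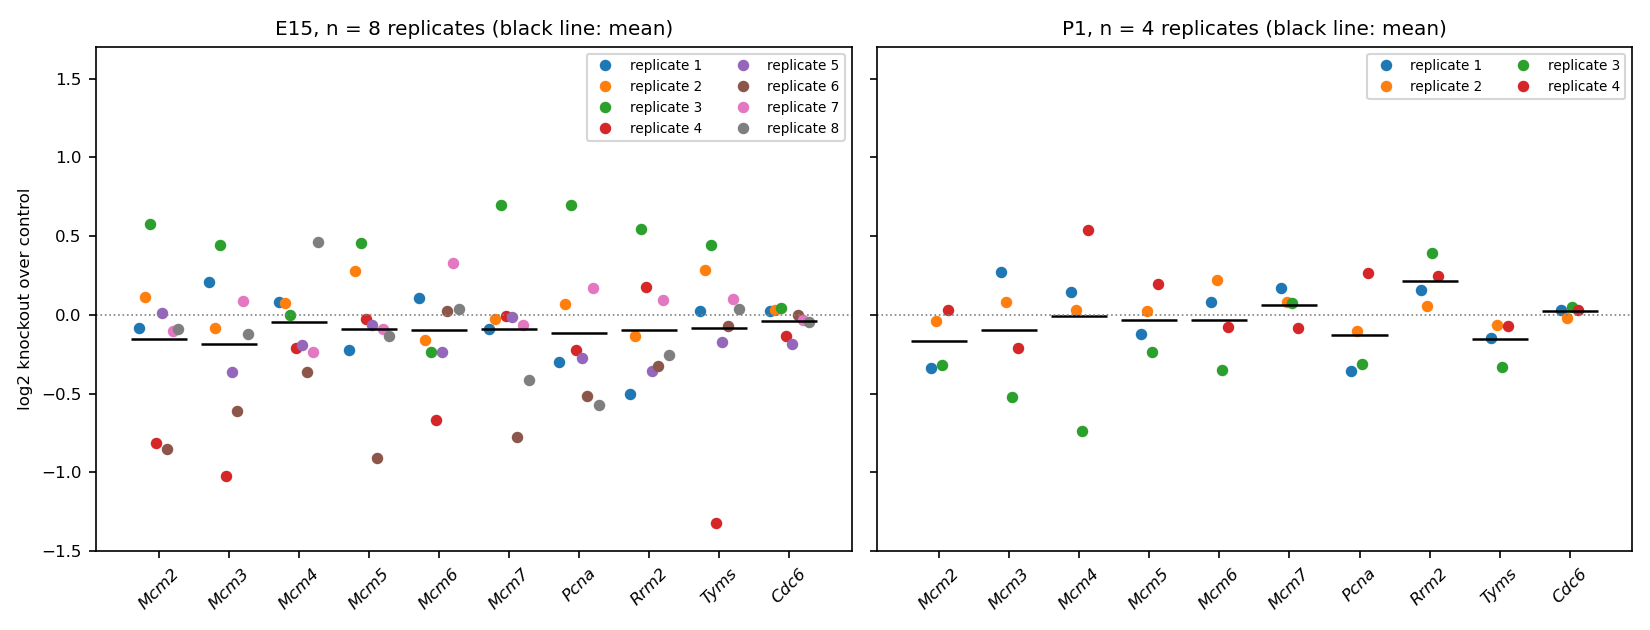
Log2 knockout over control of each gene in every pair, at E15 (left, 8 pairs) and P1 (right, 4 pairs), with the mean as a black line and 0 dotted. At E15 pair 3 (green) lies high and pairs 4 (red) and 6 (brown) low, and at P1 Rrm2 lies above 0 and Tyms below 0 in all 4 pairs.

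The knockout effect was then compared between the ages. None of the 10 genes differed, with 72 of 23553 features called (0.306%, of which 0.0255% higher at P1 and 0.28% lower) and adjusted p of 0.851 to 1 for the 10. The largest difference was that of Rrm2, 0.31 higher at P1 (SE 0.18, 95% confidence interval -0.07 to 0.69, adjusted p = 0.851). For Mcm7 it was 0.16 (SE 0.20), and for the other 8 genes it lay between -0.07 and 0.10. The interval for Mcm2 ran from -0.52 to 0.50 and that for Tyms from -0.63 to 0.50, so a p over the threshold does not show that the effects were alike. None of the 71 other replication genes was called at E15, nor was any of the 70 tested at P1 and in the difference comparison.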

How the data were processed

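Total RNA of whole mouse brain was amplified and hybridized to 2-colour Agilent arrays, per the labels' protocols. The deposited files hold spot intensity in each channel with scanner flags, per the file headers, made with Agilent Feature Extraction 8.1.1.1 (E15) and 8.5.1.1 (P1). The deposited value table holds the scanner's log10 ratios to within 0.005. The genome build of the probes is not given in the sources used here.

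Mean signals were corrected with limma 3.58.1 in R 4.3.3 (normexp on the local median background, offset 50) and normalized by loess within arrays with control spots at weight 0, and by Aquantile between arrays for levels. Log2 values were computed from the deposited intensities. Spots marked as outliers were set missing. Probes well above background in at least 50% of channels were tested. Of 41174 probes, 22161 were named by accession, 5106 by symbol, 4391 by synonym and 662 by the files' own name, and 8854 had none.

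Ratios were turned to knockout over control, and the arrays of an animal labelled knockout, 1 of each dye order except for the E15 replicates with 1 array, were averaged into 1 replicate (at E15, against 2 different controls in replicates 1 and 2). Knockouts and controls were paired by sharing an array. The P1 controls carry no number in the labels and were numbered by that array. E15 pairs that shared a control were a random block (correlation 0.0598 at E15 and 0.0402 for the difference between ages). Fits used lmFit and eBayes over all features with Benjamini-Hochberg adjustment, and called means an adjusted p under 0.05. The series describes biological replicates. The scripts were tested on simulated data.

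The 10 genes and all lists were chosen with earlier results of these data known. Named were the 10 genes, the first 3 tested genes of each list of other replication genes, any gene called against its list's direction, and the 10 genes closest in profile. The result of 1 gene named by this rule is not reported here. Alternatives changed background correction, normalization, probe filter, probe choice, blocks, scan day and replicates. Figures were drawn with matplotlib 3.10.9.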

Additional observations from a re-analysis of the deposited data

Results flagged for a closer look

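The Mcm2 level of E15 control 3, 8.87, stood apart from the other E15 controls, which lay between 8.22 and 8.46. The Tyms log2 knockout over control of E15 pair 4, -1.32, stood apart from the other pairs, which lay between -0.18 and 0.45. These were 2 of 60 groups examined, and the critical values used are set so that chance alone picks out about 1 in 20 groups.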

How the results depend on the processing

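In controls the direction of all 10 genes held under every alternative run, and 8 to 10 were called lower. The median change was -1.22 with the scanner's processed signals and -1.26 with median scaling of channels, where the median feature itself shifted to -0.18 and -0.13. In animals labelled knockout, leaving out 1 animal gave 5 to 9 calls. The shares of all features called under these alternatives are not given here. No gene of the 10 was called for the knockout label under any alternative, but small means changed sign, and the cause was not tested. At E15, median centring gave 1e-04 for Mcm3, 0.08 (0.076) for Mcm4, 0.0094 for Mcm7 and 0.011 for Pcna. Scan day 3 alone gave 0.12 for Mcm5, 0.14 for Mcm7, 0.06 (0.061) for Pcna and 0.022 for Rrm2, and days 1 and 2 gave 0.04 for Mcm6. Without the pairs with 1 array Mcm6 was 0.009 and Tyms 0.022, without the 3 pairs holding control 1 or knockout 8 (chosen after seeing the data) Pcna was 0.031 and Tyms 0.117, and the mean over probes put Cdc6 at 0.0082. At P1, processed signals gave -0.035 for Cdc6 and 0.0085 for Mcm4, the deposited ratios -0.035 and 0.0084, and median centring -0.015, 0.043 and, for Mcm6, 0.052. For the difference between ages, median centring gave -0.083 for Mcm3, -0.033 for Mcm4 and -0.033 for Mcm5. Without the pairs with 1 array it was 0.023 for Mcm2, -0.039 for Mcm6 and 0.124 for Pcna. Pcna was 0.037 with processed signals, 0.036 with deposited ratios, 0.003 with offset 10, 0.0021 without the filter and 0.0024 over all probes.

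Leaving out 1 pair at E15 gave -0.177 to 0.027 for Mcm5, -0.21 to 0.01 for Mcm7 and -0.152 to 0.08 for Tyms. At P1 it gave -0.216 to 0.048 for Mcm3, -0.189 to 0.238 for Mcm4, -0.113 to 0.033 for Mcm5 and -0.115 to 0.074 for Mcm6. For the difference it gave -0.112 to 0.095 for Mcm2, -0.025 to 0.24 for Mcm3, -0.133 to 0.293 for Mcm4, -0.062 to 0.145 for Mcm5, -0.016 to 0.173 for Mcm6 and -0.131 to 0.119 for Pcna.

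With arrays as observations and the replicate block, the median over the 10 genes was -0.133 at E15 and -0.033 at P1, and without pairing it was -0.10 and -0.033, with no call in either. A scan-day block was not run at P1, which had 1 scan day, and Cdc6 was not tested under the stricter filter. The dim signal of Cdc6 limits its values.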
